A study of Mus musculus with 502 samples.

Results

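The genes described here encode the T cell receptor complex and the first steps of its signalling, and they were 9 of the 46603 genes counted in single Cd45+ cells of the mouse kidney. They were chosen by symbol: Cd3d, Cd3e, Cd3g, Cd247, Trac, Trbc1, Trbc2, Lck and Lat. All 9 were present in the count table and had reads. The study asked how storage of intact kidneys in the cold preserves resident immune cells for single-cell sequencing. Kidneys of wild-type CD1 mice, an outbred stock, about 3 weeks of age by the study's methods, were dissociated fresh or after storage at 4 °C in the preservative HTS-FRS, and live Cd45+ cells were sorted. The 502 cells comprised fresh cells (75 and 81 from separate pools) and 76, 75, 78, 82 and 35 cells stored for 6 h and for 1, 2, 3 and 4 days.

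By the methods, both kidneys, or for days 3 and 4 parts of kidneys, of the same mouse were pooled for each timepoint, and the labels tie no cell to an animal. Each timepoint was therefore 1 sample, no test was made between timepoints, and storage cannot be told apart from the animal. The cell names also carry a number, called the pool here, that is shared by sets of cells: IM793 for 75 fresh cells and all cells of 6 h and day 2, and IM834 for 81 fresh cells and all cells of day 1 and day 3. The cells of day 4 were spread over pools IM790, IM793 and IM834 (14, 2 and 19 cells). Of 317 pairs of index barcodes, 55.8% were present in more than 1 pool. Counts on genes ran from 1759 to 1895431 per cell with a median of 695188. Levels are rpm, a cell's reads of a gene scaled to 1000000 counts on genes, and intervals of shares are exact 95% Clopper-Pearson intervals, which cover counting error only. Beside a count of 0, the share it allows is 3 counts of the total. A gene counted as read in a cell with at least 1 read, and a gene without a read may have been below detection.

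The T cell receptor recognises peptide bound to MHC molecules through an alpha and a beta chain, whose constant regions are encoded by Trac and by either Trbc1 or Trbc2. The receptor chains have no signalling domain of their own. They assemble with the CD3 chains delta, epsilon and gamma (Cd3d, Cd3e, Cd3g) and with the zeta chain (Cd247), whose cytoplasmic tyrosines are phosphorylated by the Src family kinase Lck. Zap70 binds the phosphorylated chains and phosphorylates the membrane adaptor Lat, on which further signalling proteins assemble.

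The CD3 genes lie together on chromosome 9 (GRCm38, GENCODE annotation): Cd3g at chr9:44969572-44980431 on the minus strand, Cd3d at chr9:44981786-44987339 on the plus strand and Cd3e at chr9:44998740-45009627 on the minus strand. The annotated start sites of Cd3g and Cd3d were 1355 bases apart, and the 3 genes spanned 40056 bases. Cd247 lies apart from them at chr1:165788681-165877277. The 250 bases before the RefSeq start sites (GRCm38.p6) of these 4 genes are shown because their reads were found together in the same cells, as described below, with Cd247 as the member of the CD3 group read least often over all cells. Each is written 5′ to 3′ on the gene's own strand. Capitals mark 4 short motifs, searched on both strands and chosen after the sequences were seen. The motif AGGAAG is the core of many sites of ETS transcription factors. The motif TGTGGT is a core of sites of RUNX factors, which act in T cell development. The motif CACCTG is an E-box, a kind of site bound by E proteins. The motif AGATAA is a site of GATA factors, of which Gata3 acts in T cells and innate lymphoid cells. The windows are chr9:44980432-44980681 for Cd3g, chr9:44981536-44981785 for Cd3d, chr9:45009612-45009861 for Cd3e and chr1:165788431-165788680 for Cd247.
Cd3g: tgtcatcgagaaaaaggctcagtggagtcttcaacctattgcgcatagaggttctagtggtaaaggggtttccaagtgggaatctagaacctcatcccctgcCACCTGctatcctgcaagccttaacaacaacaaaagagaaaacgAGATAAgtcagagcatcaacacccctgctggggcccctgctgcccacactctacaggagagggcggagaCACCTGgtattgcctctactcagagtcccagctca
Cd3d: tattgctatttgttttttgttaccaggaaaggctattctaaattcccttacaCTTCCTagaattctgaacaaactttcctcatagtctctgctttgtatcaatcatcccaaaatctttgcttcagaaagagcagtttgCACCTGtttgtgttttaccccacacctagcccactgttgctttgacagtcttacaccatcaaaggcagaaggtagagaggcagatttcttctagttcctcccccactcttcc
Cd3e: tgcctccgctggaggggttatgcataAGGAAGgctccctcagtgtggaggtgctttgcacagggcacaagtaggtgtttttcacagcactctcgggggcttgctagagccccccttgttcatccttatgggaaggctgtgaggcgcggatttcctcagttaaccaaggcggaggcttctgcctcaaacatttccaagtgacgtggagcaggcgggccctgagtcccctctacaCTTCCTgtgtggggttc
Cd247: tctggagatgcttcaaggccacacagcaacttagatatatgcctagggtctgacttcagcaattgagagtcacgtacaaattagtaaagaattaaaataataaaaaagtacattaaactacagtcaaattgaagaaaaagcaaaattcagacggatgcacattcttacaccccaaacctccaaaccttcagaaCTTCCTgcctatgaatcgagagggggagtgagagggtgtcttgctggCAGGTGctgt
Promoters were at hand for 6 of the 9 members, 7 promoters in all, since Lck has 2. AGGAAG was present in 5 of the 6 genes, and in 29.5% of the 32851 mouse promoters of the same length. CACCTG was present in 4 of the 6 genes and in 17.2% of all promoters. TGTGGT was present only in a promoter of Lck among the members (14% of all promoters) and AGATAA only in that of Cd3g (9.99%). These matches are letters in a window and not measured binding sites.

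Trbc1 (chr6:41538218-41539881) and Trbc2 (chr6:41546730-41548352) lie 6848 bases apart and are near-identical copies. Over the 521 coding bases, stop codon included, 498 were shared and 23 differed (95.6% identical). Exon 1, of 375 bases, held 1 difference, and 22 lay in the exons after it. The last 281 of the coding bases are shown because every difference lies in them, and capitals mark the bases that differ.
Trbc1: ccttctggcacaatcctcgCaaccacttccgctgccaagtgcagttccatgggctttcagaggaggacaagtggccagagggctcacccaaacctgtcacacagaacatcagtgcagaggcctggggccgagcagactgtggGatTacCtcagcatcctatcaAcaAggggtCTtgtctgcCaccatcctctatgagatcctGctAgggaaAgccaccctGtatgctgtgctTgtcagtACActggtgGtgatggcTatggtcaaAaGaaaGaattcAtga
Trbc2: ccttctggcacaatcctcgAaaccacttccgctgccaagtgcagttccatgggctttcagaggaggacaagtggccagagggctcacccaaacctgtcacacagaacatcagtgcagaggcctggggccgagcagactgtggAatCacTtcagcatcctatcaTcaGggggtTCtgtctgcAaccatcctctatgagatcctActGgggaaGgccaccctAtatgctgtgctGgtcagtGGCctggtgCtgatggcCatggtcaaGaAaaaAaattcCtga
The authors trimmed reads to 75 bases. Of all 75-base windows of the Trbc1 transcript, 35.1% were also present in Trbc2, and 37.7% of those of Trbc2 were present in Trbc1. A single read from such a window fits both genes. The reads were sequenced in pairs, whose mates can lie where the genes differ, and the shares for pairs were not computed. How such reads were counted was not stated, so the split between both genes is uncertain. The other members are Trac at chr14:54220521-54224206, Lck at chr4:129548344-129573641 and Lat at chr7:126363824-126369570.

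Cells fell into a group without these genes and a group with most of them. Of 502 cells, 308 (61.4%) had no read of any member and 24.5% (interval 20.8 to 28.5) had reads of at least 4. The remaining 71 cells read 1 to 3: 45 cells read 1 member, 19 read 2 and 7 read 3. Among the cells with 4 or more, 34 read 7, 34 read 8 and 23 read all 9. With at least 10 rpm in place of 1 read, the share with 4 or more was 23.9%, and after thinning every cell to 100000 counts it was 24.1% of 494 cells.

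**Figure D1:**
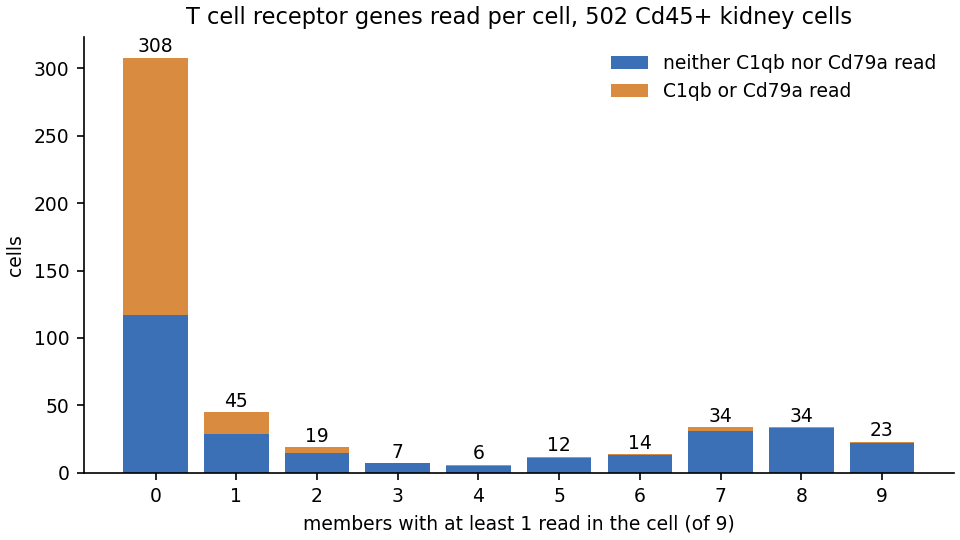
Number of cells (y axis) by number of the 9 members with at least 1 read (x axis), for 502 cells, coloured by whether the cell had a read of C1qb or Cd79a. Counts above the bars show 308 cells at 0 and a second rise at 7 to 9 members.

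The label of the gene set was checked against 14 other T lineage genes that are not members (among them Cd2, Cd5, Cd6, Cd28, Thy1, Bcl11b, Lef1, Tcf7, Themis, Trat1, Ubash3a, Skap1 and Il7r). At least 3 of the 14 were read in 95.1% of the cells with 4 or more members, with a median of 7. This was so in 27 of the 71 cells with 1 to 3 members and in 0 of the 308 cells with none, at median depths of 710196, 712448 and 669854 counts. The cells with 4 or more members were not all alpha beta T cells: 11 had a read of the natural killer receptor gene Ncr1, 10 of the delta chain gene Trdc, 1 of Nmur1, 5 of the macrophage gene C1qb and 4 of the B cell gene Cd79a. Doublets were not called.

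The share of cells with 4 or more members was 37.8% among fresh cells, or 59 cells. It was 34.2%, 10.7%, 24.4%, 9.76% and 8.57% after 6 h and 1, 2, 3 and 4 days (26, 8, 19, 8 and 3 cells). The fresh cells of the pools differed from each other: 16% in pool IM793 (12 of 75, interval 8.55 to 26.3) and 58% in pool IM834 (47 of 81, 46.5 to 68.9). Within pool IM793 the stored cells of 6 h and day 2 had the higher shares, with overlapping intervals, and within pool IM834 the stored cells of day 1 and day 3 had the lower ones, with intervals that did not overlap that of the fresh cells. The sign of the difference between fresh and stored cells thus depended on the pool.

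Each member was then judged in the cells with reads of at least 3 of the other 8, so that its own reads did not choose the cells. Of the signalling chains, Cd3e was read in 110 of 130 such cells (84.6%, interval 77.2 to 90.3), Cd3g in 80.3% and Cd3d in 77.7% of 130. Cd247, which encodes the zeta chain, was read in 73 cells (56.6%, 47.6 to 65.3). Of the receptor chains, Trbc2 was read in 93.6%, Trac in 100 of 130 (76.9%) and Trbc1 in 66 cells (52.8%). Lat was read in 87.2% and Lck in 83.6%. Over all such cells the intervals of Cd247 and Trbc1 lay below those of the other 7 members and overlapped each other. This order did not hold in every group: in the 12 fresh cells of pool IM793 Cd247 and Cd3d were read in 11 each, Cd3e and Lat in 10, Trac and Lck in 9, and Cd3g and Trbc1 in 7.

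The members differed in how closely their reads were tied to such cells. Cd3e was the tightest, since 98.2% of its reading cells (all but 2) had at least 3 other members and no cell read Cd3e alone. Trac was close to it, with 2 reading cells elsewhere. Lat and Trbc2 were the widest, with 24 and 21 reading cells elsewhere. Cd3d had 18 elsewhere, and in 15 cells it was the only member read. Of all 45 cells that read a single member, Trbc2 was that member in 8, Lat in 7, Lck in 6, Cd3g in 4, Trbc1 in 3, and Cd247 and Trac in 1 each.

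Pairs of members differed in how often they were read together. Cd3e and Trac were read together in 97 cells, which was 86.6% of the Cd3e cells, 95.1% of the Trac cells and 82.9% of the cells with either, the highest share of the 36 pairs. Cd3d and Cd3e shared 97 cells (72.4% of the cells with either), Cd3e and Cd3g 94 (72.3%) and Cd3d and Cd3g 86 (59.3%), although the start sites of Cd3d and Cd3g are the closest. Cd247 and Trbc1 shared 38 cells, the lowest share (33.3%). Among the cells with 4 or more members, all 4 CD3 group chains were read in 53 (43.1%, interval 34.2 to 52.3), 3 of them in 44, 2 in 18, 1 in 6 and none in 2. Trac together with a Trbc gene was read in 100 of these cells (81.3%), a Trbc gene without Trac in 23, and Trac without a Trbc gene in 0, a count that allows a share of up to 2.44% (exact upper limit 2.95%).

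Levels in the reading cells are compared between genes only per kilobase of annotated exons. Among cells chosen by the other members, the median level was 956 rpm per kb for Trbc2, 613 for Trac, 539 for Trbc1, 520 for Lck, 358 for Cd3d, 285.0 for Cd3g, 197.9 for Cd3e, 189.1 for Lat and 116.3 for Cd247. The ranges over cells overlapped for all 9, so this is an order of medians and not a separation. For Trac and the Trbc genes only the constant region is annotated under these symbols. In rpm over all chosen cells, zeros included, Lck ran from 0 to 5895 with a median of 1317. Cd3e ran from 0 to 3212 with a median of 659, and Cd247 from 0 to 2254 with a median of 41.9.

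At days 1, 2 and 3, Cd247 was the member whose detection differed most from that in fresh cells. It was read in 44 of 60 fresh cells chosen by the other members (73.3%, interval 60.3 to 83.9). At 6 h it was read in 15 of 26 (57.7%, 36.9 to 76.6) and at day 2 in 7 of 22 (31.8%, 13.9 to 54.9). In the few such cells of days 1, 3 and 4 it was read in 3 of 8, 2 of 9 and 2 of 4. Its level ran from 0 to 2254 rpm with a median of 204.7 in fresh cells, from 0 to 2168 with a median of 208.2 at 6 h, and from 0 to 1380 with a median of 0 at day 2. At day 1 the highest value was 1827 rpm and at day 3 it was 628, and the median was 0 at both. The ranges overlapped at every timepoint, and the share of cells without a read was higher from 6 h to day 3. The level of the reading cells differed as well. Its median was 736 rpm in fresh cells, 894 and 882 at days 1 and 2, lower than fresh at 6 h and lowest at day 3 (397). Days 1 and 3 had only 3 and 2 reading cells. In the fresh cells of pool IM793 this median was below those of 6 h and day 2, which share the pool. By share of cells with a read, both fresh pools were above every timepoint from 6 h to day 3: 11 of 12 cells in pool IM793 and 33 of 48 in pool IM834. The day 2 cells were sequenced more deeply than the fresh ones (median 942240 and 551992 counts), and with the same cells thinned to equal depth the shares were 31.8% and 69.5%. Without cells that read C1qb, Cd79a, Ncr1, Nmur1 or Trdc, the shares were 33.3% of 15 cells at day 2 and 76% of 50 fresh cells.

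The background for this comparison was wide. Among 835 genes read in at least 50% of the 59 fresh cells with 4 or more members, 20.1% had a share lower by 25 percentage points or more at day 2, and the median difference was -10.3 points. Of the 8 members that could be judged in this way only Cd247 was so (36.8% against 74.6%). At 6 h 6.59% of the 835 genes had such a difference, and 0 of the 8 members did. The members' own reads chose these cells, which can hold up the members' shares and not those of the other genes. At day 2 Cd3d was read in 100% of them, against 86.4% of the cells chosen by the other members. The counts of members and of all genes are therefore not on the same footing.

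For each of the other 8 members the intervals at 6 h to day 3 overlapped that of all fresh cells, although several shares were lower. Those of Cd247 overlapped it at 6 h and day 1 and lay below it at day 2 and, narrowly, at day 3 (2.81 to 60). The Cd247 intervals of day 2 and day 3 overlapped that of the fresh cells of pool IM834 (53.7 to 81.3), the pool of day 3. Neither overlapped that of the 12 fresh cells of pool IM793 (61.5 to 99.8), the pool of day 2. Cd3e was read in 91.7% of 60 fresh cells and in 74.1%, 87.5%, 81.8% and 77.8% of the cells of 6 h and days 1, 2 and 3. Cd3g was read in 86.7% of fresh cells and in 74.1%, 75%, 70% and 77.8% at these times, and Trac in 86.7% and then in 70.4%, 75%, 68.2% and 66.7%. Trbc2 was read in 98.3% of 59 fresh cells and in 92.6%, 87.5%, 90% and 75%. The shares of Cd3e, Cd3g, Trac and Trbc2 were thus below the share of all fresh cells at all 4 times. Beside the fresh cells of pool IM793 alone this did not hold for Cd3e (83.3%), which was higher at day 1, or for Trac (75%), which was equal at day 1. For Trbc2, as for Cd247, they were also below both fresh pools, 12 of 12 cells in IM793 and 46 of 47 in IM834. For Cd3g they were not, since the fresh pools themselves differed, with 7 of 12 cells in IM793 and 45 of 48 in IM834. Cd3d was read in 85% of fresh cells and in 63%, 62.5%, 86.4% and 77.8% of the stored cells in the same order of times. Lck was read in 88.3% of fresh cells and in 96.2%, 87.5%, 66.7% and 66.7%, and Lat in 84.7% and then in 88.9%, 87.5%, 90% and 87.5%. Trbc1 was read in 47.5% of fresh cells and in 65.4%, 75%, 50% and 50%, but in 58.3% of the fresh cells of pool IM793 alone. Some of these orders changed with depth. Thinned to equal depth and at 10 rpm or more, the Cd3d share at day 2 was 77.3% by both measures, below the fresh shares of 84.7% and 81.7%. The Lat share at day 1 was 75% and 62.5%, below the fresh shares of 81% and 81.4%, and the Lck share at day 1 was 87.5% by both measures, above the fresh shares of 81.4% and 83.3%. Thinned to equal depth, the Trbc1 share at day 2 was below the fresh share (35% against 48.3%), and at 10 rpm or more those at day 1 and day 2 were (37.5% and 35% against 45.8%).

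**Figure D2:**
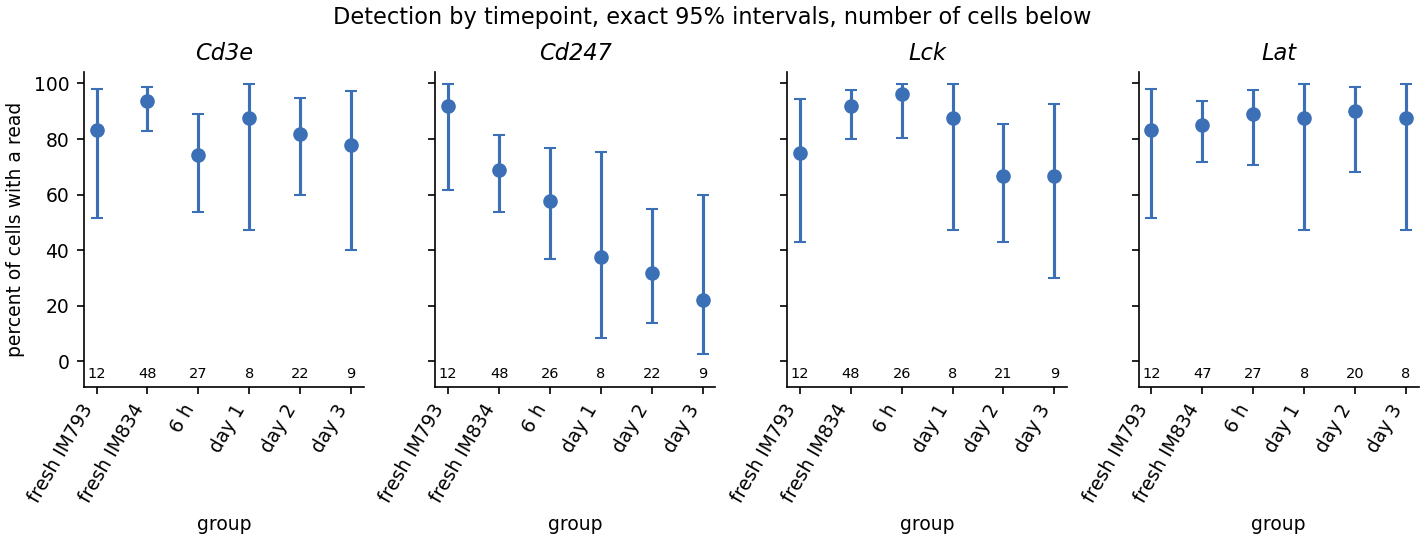
Percent of cells with a read (y axis) of Cd3e, Cd247, Lck and Lat in cells with at least 3 of the other 8 members, for the fresh cells of each pool and the stored cells of 6 h to day 3 (x axis). Points are shares, bars are exact 95% intervals and numbers are cells. Cd247 is lower at every stored timepoint than in either fresh pool, from 57.7% at 6 h to 22.2% at day 3.

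**Figure D3:**
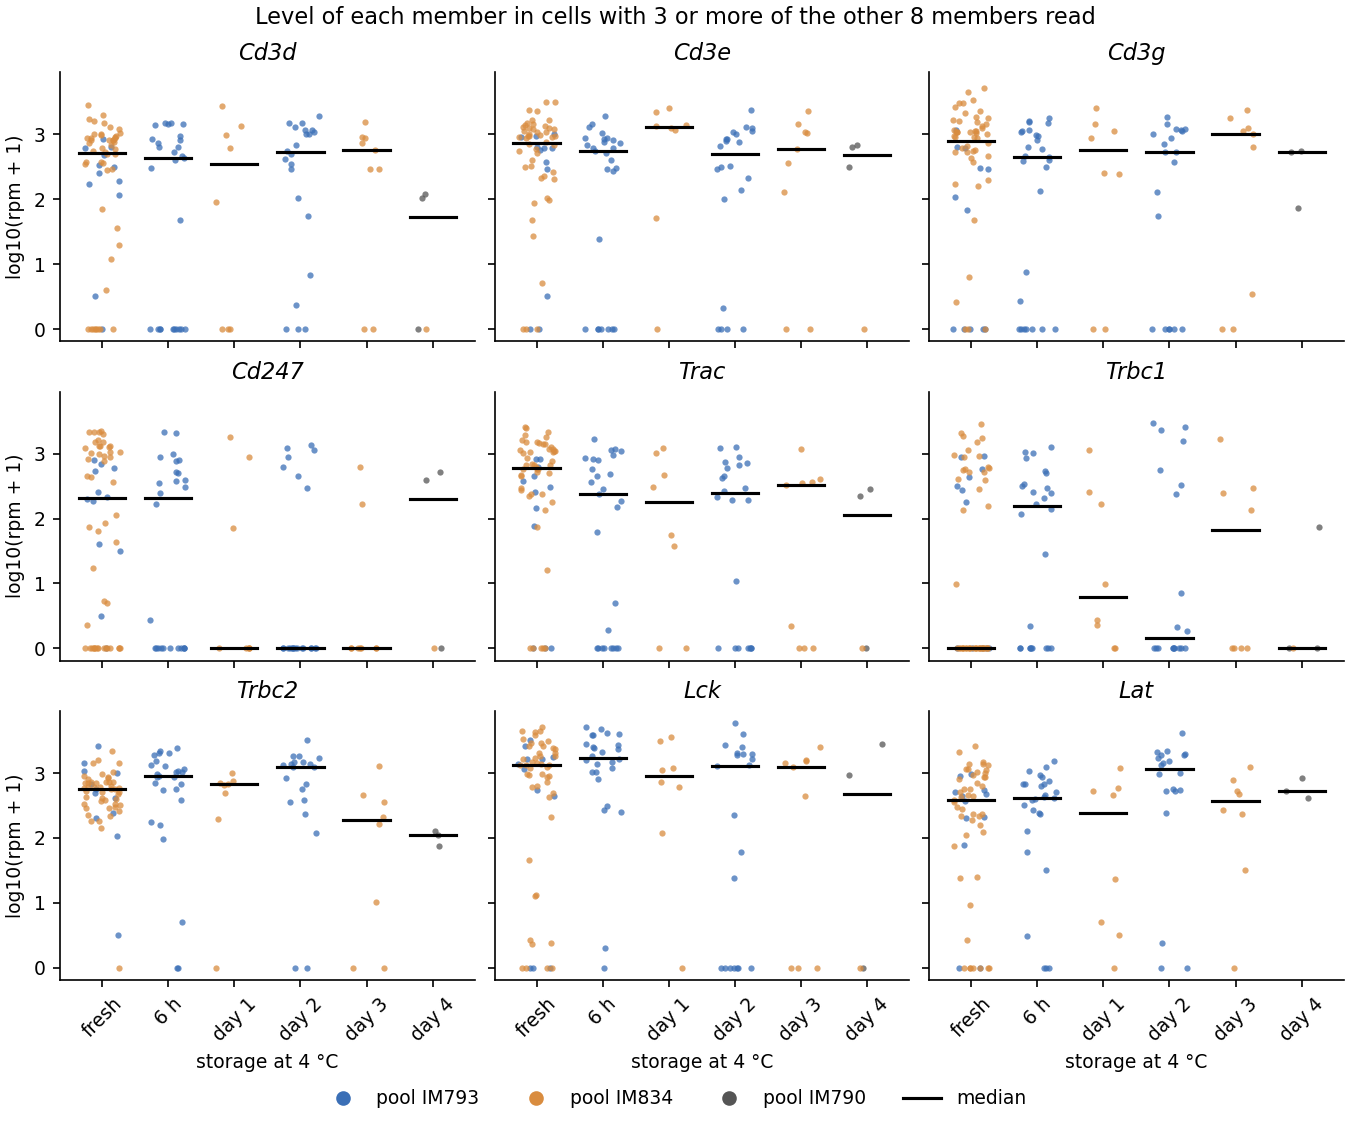
Level of each member as log10(rpm + 1) (y axis) in single cells with at least 3 of the other 8 members, by storage time (x axis), with pools in colour and a line at the median of each time. Cells without a read lie at 0, and the ranges overlap between fresh and stored cells for every member.

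Summed counts were compared where both groups had at least 10 cells with 4 or more members, which left 6 h (26 cells) and day 2 (19 cells) against all 59 fresh cells. Day 1 and day 3, with 8 such cells each, gave no ratio. The members' own reads chose the cells for these sums, so members and other genes are not on the same footing here either. At 6 h, 0 of 9 members were 2-fold or more higher and 0 lower, against 23.7% and 19.4% of 7974 genes, and 7 of 9 were below the fresh sum. Their log2 ratios ran from -0.80 for Trac to 0.60 for Trbc2, with a median of -0.37 beside 0.14 for all genes. At day 2, 1 of 9 was 2-fold or more higher and 0 lower, against 28.4% and 25.3% of 6389 genes. That member was Lat, with 1308 counts per 1000000 against 531 in fresh cells, a log2 ratio of 1.30. Trbc2 was just under the limit with 1267 against 635 (1.00), and the other 7 lay between -0.74 for Cd247 and 0.64 for Trbc1. The median was -0.11 beside 0.17 for all genes. These counts depended on the measure. As differences of mean log2(rpm + 1) over cells, where cells without a read weigh more, Lck was higher (1.24) and Cd3d, Cd3e, Cd3g, Cd247 and Trac were lower (-1.20 to -2.14) by 1 or more at 6 h, against 14.2% of genes higher and 5.56% lower. At day 2 Cd3d and Lat were higher (1.02 and 1.98) and Cd3g, Cd247, Trac and Lck lower (-1.30 to -2.67), against 8.05% and 15.3% of genes. In single cells Lat ran from 0 to 2635 rpm with a median of 382 in fresh cells and from 0 to 4173 with a median of 1162 at day 2, so that the ranges overlapped.

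The reference mattered. Against the 12 fresh cells of pool IM793, the pool of both timepoints, 8 of 9 members were above fresh at 6 h and 8 of 9 at day 2, with medians of 0.37 and 0.81 on the log2 scale. Of the members, 1 was 2-fold or more higher at 6 h (Cd3g, 1.18) and 3 at day 2 (Lat 1.87, Cd3d 1.29 and Cd3g 1.08), against 21.2% of 6500 and 24.9% of 5371 genes, and 0 were lower, against 23.2% and 28.4% of genes. Single cells weighed on these sums: 1 of the 12 fresh cells held 35.8% of their Trbc1 counts and 1 of the 26 cells of 6 h held 26.1% of their Cd247 counts. Lat was above fresh at day 2 against both references (1.30 and 1.87), and Cd247 was near its fresh sum in the same pool (0.14 at 6 h and -0.08 at day 2) although a smaller share of cells read it. Against the 47 fresh cells of pool IM834, a reference chosen after seeing the data, Trac was 2-fold or more lower at 6 h (-1.03), against 21% of 7331 genes. In that comparison at day 2 Lat (1.16) and Trbc2 (1.06) were higher and Cd3g (-1.02) was lower, against 27.8% and 26.1% of 6010 genes. Trbc2 at day 2 was also past 2-fold higher against all fresh cells with cells chosen by other T lineage genes (1.04) and without cells that read C1qb or Cd79a (1.02). Trac at 6 h was also past 2-fold lower against all fresh cells when the sums were scaled by TMM or DESeq2 size factors (-1.04 and -1.05).

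Beyond the members, 42 genes of the pathway were examined. In the cells with 4 or more members, 11 of the 42 were read in at least 50% of cells, and 35 of 42 were read in a larger share there than in the other cells, against 50.2% of 20568 genes read in any cell. The phosphatase Ptprc, which encodes Cd45, the antigen of the sort, was read in 95.1% of these cells and 89.4% of the others. The kinase Zap70 was read in 49.6% and 3.43%, and the Src family kinase Fyn in 47.2% and 15.8%. The adaptor Lcp2, which binds to Lat complexes, was read in 60.2% and 49.3%, and the Lck inhibitor Csk in 43.1% and 46.2%. At 6 h, 6 of 41 pathway genes were 2-fold or more higher than in all fresh cells and 8 lower, and at day 2, 7 were higher and 6 lower, with medians of 0.10 and 0.21, to be read against the shares of all genes given above. Against the fresh cells of pool IM793, 9 of 41 were higher and 2 lower at 6 h, and 14 were higher and 4 lower at day 2, with medians of 0.39 and 0.35. In at least 3 of these 4 comparisons, which share cells, Sit1, Rhoh, Rasgrp1, Nck1 and Ubash3b were 2-fold or more higher and Cd8a and Cd8b1 lower. The adaptor Sit1 had log2 ratios of 1.41 and 1.55 against all fresh cells and 2.00 and 2.13 against pool IM793. The GTPase Rhoh had 0.02 and 1.40, and 1.08 and 2.45. Cd8a had -2.38 and -1.79, and -2.72 and -2.12, but it was read in 2 of 26 cells at 6 h and 2 of 19 at day 2, where 1 cell held 99.7% of its counts. Cd8b1 was read in 1 of 26 cells at 6 h, and at day 2 a single cell held 90.3% of its counts. A single cell also held 46.2% of the Ubash3b counts at 6 h and 72.3% at day 2, and 51.7% of the Nck1 counts at 6 h. Of the Nck1 counts in the fresh cells of pool IM793, 99.7% were in 1 cell. Fyn was lower than in all fresh cells at both times, with 74.9 counts per 1000000 at 6 h and 99 at day 2 against 323 in fresh cells (log2 ratios -2.11 and -1.70). Against the fresh cells of pool IM793 its ratios were -0.88 and -0.48. Zap70 had ratios of 0.16 and -0.37, Lcp2 -0.42 and -0.82 (0.11 and -0.29 against pool IM793), Csk 0.19 and 0.63, and Ptprc -0.35 and -0.08, all against all fresh cells unless stated.

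Across all 502 cells genes whose log2(rpm + 1) was among the most like the mean of the 9 members, among 9534 other genes read in at least 25 cells, were Lef1 (Pearson r = 0.766), Tcf7 (0.739), Skap1 (0.705), Sept1 (0.661), Cd28 (0.653), Cd5 (0.650), Thy1 (0.639), Ms4a4b (0.638) and Gimap4 (0.637). Of these, Lef1, Tcf7, Skap1, Cd28, Cd5 and Thy1 are among the 14 other T lineage genes. The cells come from 3 pools and differ in depth, and most are at 0 for most of these genes. Of the members themselves, Cd3e was the most like the mean of the other 8 (0.908) and Trbc1 the least (0.552), with Cd247 next (0.692).

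Trbc1 and Trbc2 are alternative constant regions of the beta chain, and a rearranged beta gene uses 1 of them. Of the cells with at least 3 of the 7 members other than these, 57 read Trbc2 only, 6 read Trbc1 only and 59 read both (48.4%, interval 39.2 to 57.6), and 0 read neither. At 10 rpm or more, 50 cells read both (41%). By share of the counts of both genes, Trbc2 held over 90% in 67 cells and Trbc1 over 90% in 8, and 47 lay in between. Over all cells Trbc1 held 31.2% of the summed counts. The share of cells with both was 45.8% in fresh cells, 60% at 6 h and 47.4% at day 2, with overlapping intervals. Because windows of read length are shared by both genes, a read of both does not by itself show that a cell expressed both.

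**Figure D4:**
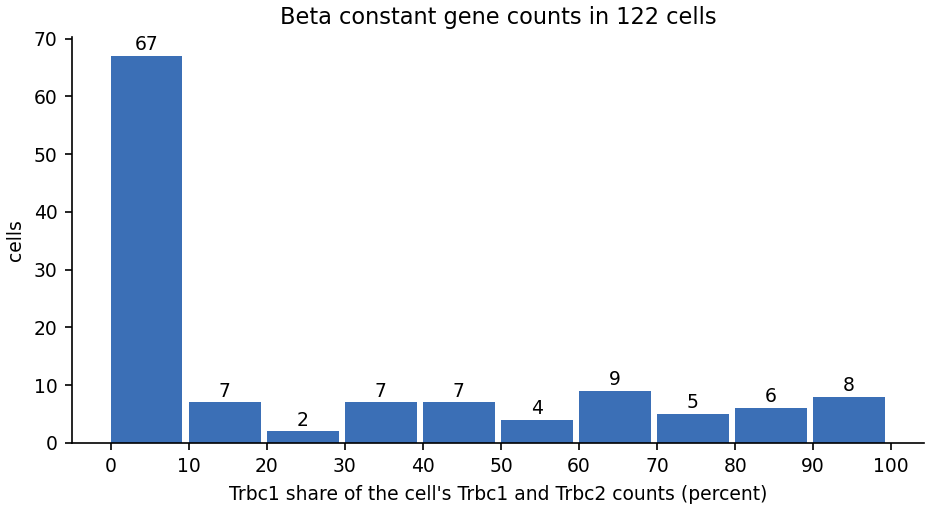
Number of cells (y axis) by the share of Trbc1 in the cell's counts of Trbc1 and Trbc2 (x axis, percent, bins of 10) in cells with at least 3 of the other 7 members. The lowest bin holds 67 cells and the highest 8, with 2 to 9 cells in each bin between them.

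The background was taken from cells that read C1qb, a complement gene of macrophages, or Cd79a, a part of the B cell receptor. Of such cells 28 (12.8%, interval 8.67 to 17.9) had a read of any member. Single members were read in 1.83% (Cd247) to 6.39% (Lck) of them, at a median depth of 668893 counts. The reads were gathered in few cells, since 8 of the 28 had 4 or more members. Without these 8 cells the shares were 0 for Cd247, which allows up to 1.42% (exact upper limit 1.73%), 0.474% for Trac and Trbc1, 0.948% for Cd3e and Trbc2 and 2.84% for Lck, and at 10 rpm or more Cd3e, Cd3g, Trac and Trbc1 were read in 0 of them. Lck at 10 rpm or more was read in 4 of them. The 8 cells were left out for reading 4 or more members, so the removal itself lowers these shares. They are therefore no separate measure of the background. With C1qb or Cd79a at 10 rpm or more, the shares were 0.980% for Cd3e, Cd247, Trac and Trbc2 and 1.47% for Trbc1. In the same cells they were 2.45% for Cd3d, Cd3g and Lat and 3.43% for Lck.

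Cells that read Nmur1, a receptor gene of group 2 innate lymphoid cells, held an incomplete set. Of 25 such cells, 23 also read Gata3, 0 read Ncr1 or Trdc and 7 read the gamma chain constant gene listed as Tcrg.C4. Trbc2 was read in 16 (64%, interval 42.5 to 82), with a median of 154.4 rpm in the reading cells, and Lat in 15 (60%), with a median of 323 rpm. Cd3g was read in 7 (28%, 12.1 to 49.4) and Trbc1 in 5. Lck, Cd247, Trac and Cd3d were read in 0 of 25, which allows a share of up to 12% each (exact upper limit 13.7%). Cd3e was read in 1 (4%, interval 0.101 to 20.4). Its background share was 3.65%, or 0.980% with C1qb or Cd79a at 10 rpm or more. The shares of Trbc2, Lat, Cd3g and Trbc1 were above the background shares of 3.65%, 5.02%, 3.65% and 2.28%, at similar depth (median 651403 counts). Reads of Lat in such cells came from all 6 storage times.

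Cells that read Ncr1 held another incomplete set. Of 16 such cells, 14 read Klrb1c, 9 read Klre1 and 3 read Eomes, the other natural killer genes examined. Gata3 was read in 8 of the 16 and Trdc in 6. Lck was read in 14 (87.5%, interval 61.7 to 98.4), Trbc1 in 12 (75%), Trbc2 and Lat in 10 each and Cd247 in 9 (56.2%). Of the CD3 chains, Cd3g was read in 7 (43.8%) and Cd3d in 6 (37.5%). Cd3e and Trac were read in 3 each (18.8%, 4.05 to 45.6). Lck and Cd247, read in most Ncr1 cells, were among the members read in 0 of the 25 Nmur1 cells, and the intervals of both shares did not overlap between the 2 kinds of cell. The Ncr1 cells were sequenced more deeply (median 955952 counts, against 651403 in the Nmur1 cells). Of 12 cells that read Trdc, 6 of which also read Ncr1, Lck was read in 11, Trbc1 in 10, Cd3g in 8 and Cd3e in 5. In the 6 Trdc cells without Ncr1, Cd3g was read in 6, Cd3e in 5 and Trac in 3.

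Cd3d was also read in cells with neutrophil genes. Of 38 cells with at least 3 of S100a8, S100a9, Retnlg and Csf3r at 10 rpm or more, 14 read Cd3d (36.8%, interval 21.8 to 54), from 2.17 to 2920 rpm with a median of 373, against 5.48% of the cells with C1qb or Cd79a. In 12 of the 14 the level was 10 rpm or more, and in 11 Cd3d was the only member read. These 11 were most of the 15 cells in which Cd3d stood alone. The other 8 members were read in 0 to 2 of the 38 cells and at 10 rpm or more in none. By group, Cd3d was read in 6 of 17 such fresh cells of pool IM793, in 4 of 14 stored for 6 h, in 3 of 4 stored for 1 day (pool IM834), in 0 of 1 stored for 2 days and in 1 of 2 of pool IM790 stored for 4 days. Median depth was 696040 counts with and 710280 without a Cd3d read. In cells chosen by the other members the median of the reading cells was 650 rpm.

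**Figure D5:**
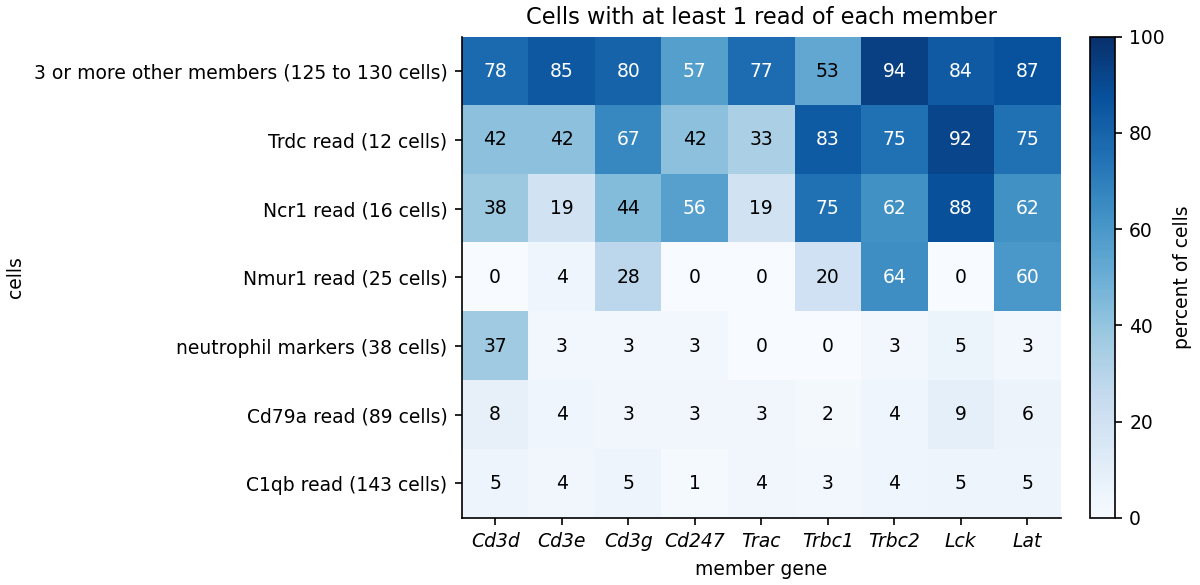
Percent of cells (colour and numbers) with at least 1 read of each member (columns) in cells chosen by 3 or more other members and in cells chosen by Trdc, Ncr1, Nmur1, neutrophil markers, Cd79a or C1qb (rows). Lck is at 87.5% in Ncr1 cells and 0 in Nmur1 cells, and Cd3d is at 36.8% in cells with neutrophil markers.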

How the data were processed

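The deposited values were raw read counts per gene in 502 cells, made by the authors: reads were trimmed to 75 bases, duplicates removed with picard, the rest aligned to GRCm38 with STAR and counted with HTSeq (intersection-strict, strand ignored), and cells under 1000 reads dropped. The 97 rows that name no gene (0.140% of counts) were left out. For STAR and HTSeq the version is not given in the sources used here. Counts were scaled to rpm. SmartSeq2 reads carry no molecular identifiers, so intervals cover counting error only.

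The members, gene lists and marker genes were chosen with earlier results of these data known. Cells for a member had at least 3 of the other 8 members read, and cells for sums at least 4 of 9. Ratios of summed counts needed 10 cells a group and 50 counts in both sums, and called means 2-fold. Named genes were the 9 members, Zap70, Lcp2, Fyn, Ptprc and Csk, pathway genes called in 1 direction in at least 3 of 4 comparisons (2 times, 2 references), the 10 most alike genes and the markers; 1 gene that the rule names is not reported here. With 1 sample a timepoint no test was made. Python 3.11.15, edgeR 4.0.16 (TMM) and DESeq2 1.42.0 (size factors) were used, and the ratio of sums was tested on simulated data.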

Additional observations from a re-analysis of the deposited data

How the results depend on the processing

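The share of cells with 4 or more members lay between 23.3% and 25.9% under its 4 alternatives. Against fresh cells of pool IM793 the median log2 ratio of the members changed sign, to 0.37 at 6 h and 0.81 at day 2, and against those of pool IM834 alone (chosen after seeing the data) it was -0.53 and -0.21. As a difference of mean log2(rpm + 1) over cells it was -1.20 at 6 h and -0.36 at day 2, and Trbc1 at day 2 was -0.36 in place of 0.64. Under TMM and DESeq2 size factors Trac at 6 h was -1.04 and -1.05, past 2-fold lower. TMM, DESeq2 size factors, totals without the 18S gene, no minimum count, other T lineage genes, 5 members, or (chosen after seeing the data) leaving out cells with C1qb or Cd79a moved it by less than 0.5, although at day 2 it was 0.02 with cells chosen by other T lineage genes and 0.05 without cells with C1qb or Cd79a. Chosen by other T lineage genes, cells gave a median detection of 86.5% in place of 80.3%. Any member at 10 rpm or more was found in 7.31% of cells with C1qb or Cd79a, and any member in 100% of 44 cells with Nmur1, Ncr1 or Trdc at 10 rpm (97.9% of 47 with a read). The cause was not tested. Cd247 was read less often than in fresh cells at 6 h to day 3 under all 5 alternatives chosen after seeing the data, with differences from -12.8 to -76.5 percentage points. Ratios for day 1 and day 3 were not run, with 8 cells each. No timepoint has labelled replicates to leave out beyond the fresh pools. No paired analysis was possible because no test was made, and the pool number served as a same-pool reference.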

Other observations

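The coreceptor genes were read in a part of the cells with 4 or more members. Cd4 was read in 46 of them (37.4%), Cd8a in 13 (10.6%) and Cd8b1 in 14 (11.4%), against 6.86%, 0.792% and 0% of the other cells. Of the fresh cells with 4 or more members, 13.6% read Cd8a and 15.3% read Cd8b1. At 6 h these shares were 7.69% and 3.85%, and at day 2 they were 10.5% for both. In the 8 such cells of day 1 they were 12.5% and 25%. In the 8 of day 3 and the 3 of day 4 both were 0, with few cells to judge by. Cd4 was read in 37.3% of the fresh cells, 34.6% at 6 h and 42.1% at day 2. The adaptor Trat1, which associates with the receptor complex, was read in 26 of these cells (21.1%) and in 0% of the others. These genes were chosen from the pathway list after their values were seen.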
